A study of Mus musculus with 4 samples.

Results

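Transcription factors that set the fat, bone, cartilage, muscle and tendon lineages were examined in embryonic fibroblasts with and without Top2β. The members were 10 genes, listed by their role and found in the deposited table by their Ensembl identifiers: Pparg, Cebpa, Cebpb and Cebpd for fat, Runx1, Runx2, Sox9 and Sp7 for bone and cartilage, Myod1 for muscle and Scx for tendon. The table lists 54842 genes, and all 10 members were among them. The study sequenced total RNA, after removal of ribosomal RNA, from untreated wt MEF cells (mouse embryonic fibroblasts, 2 libraries) and from untreated MEF cells that lack Top2β, called Top2β-null MEF cells here (2 libraries). Top2β is a DNA topoisomerase that passes DNA strands through a transient double-strand break. The wt cells carried no allele named in the labels, and no drug or stress was applied to either group. The study's methods give a medium for MEF cells and do not name one for the Top2β-null cells separately. The Top2β-null cells were derived from Top2β-null mice and came to the study as a gift from other laboratories, so that genotype and the origin of the cells cannot be told apart. The labels do not say whether the 2 libraries of a genotype came from separate cultures, and p-values may then measure technical spread alone.

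Mesenchymal progenitors can become adipocytes, osteoblasts, chondrocytes, tenocytes or muscle cells, and a few transcription factors set which programme is used. In fat, Cebpb and Cebpd act early and are followed by Pparg and Cebpa, which maintain the adipocyte state. In the skeleton, Sox9 directs cartilage, Runx2 and then Sp7 (osterix) direct bone, Scx marks tendon progenitors and Myod1 converts fibroblasts into myoblasts when it is forced on.

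The deposited counts summed to between 133116830 and 149647278 per library. The targeted gene, Top2b, had 18259 and 18465 normalized counts in wt and 3879 and 3789 in Top2β-null cells, which is 20.9% of the wt mean. A normalized count is a count scaled to a common effective library size by edgeR's TMM factors. Of 12 fibroblast markers, 11 had counts high enough to be tested, and their summed level lay between 1342121 and 1366587 normalized counts in wt and between 908693 and 913384 in Top2β-null libraries. Of these markers, 4 were called higher, with log2 fold changes of 4.99 for Dcn, 2.07 for Thy1, 1.88 for Pdgfrb and 1.16 for Pdgfra. Col1a1 and Col3a1 were the 2 called lower, and by the adjusted p alone 4 were higher and 6 lower. Of all tested features, 5.27% were called higher and 4.97% lower, and by the adjusted p alone 32.5% were higher and 32.5% lower. The call of Col3a1, 1 of the 2 lower, was lost when scaling to the total count (log2 fold change -0.94) and without either Top2β-null library (-0.98 in both fits), against -1.01 as reported, and Fbn1 was called lower as well without wt replicate 1. Lum had at most 4 counts in any library. Of 10 blood cell markers, 4 were tested, 0 were called higher and 1 (Gata1) was called lower by edgeR. By the adjusted p alone, 2 were higher and 1 lower. Gata1 could not be tested without either wt library, by the filter. Csf1r and Itga2b were well above the filter in every library, whereas Tyrobp and Adgre1 had 0 counts in all 4 libraries and Ptprc (CD45) had between 2 and 7 counts. Of 6 epithelial markers, 2 were tested and 0 were called by edgeR, although both (Krt8 and Cdh1) were lower by the adjusted p alone, with means under 100. Of 4 endothelial markers, all tested, 1 (Kdr) was called higher, and the adjusted p alone gave 1 higher and 1 lower (Tek). In such bulk samples, fewer cells of a type and less RNA per cell cannot be told apart.

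Of the 10 members, 8 passed the filter of at least 10 counts in at least 2 libraries, while Sp7 and Myod1 did not. A gene was called when its adjusted p was below 0.05, its absolute log2 fold change above 1 and its mean above 100 normalized counts, with edgeR's quasi-likelihood test and Benjamini-Hochberg adjustment over 26566 genes and repeat families. Cebpb and Cebpd were called higher in Top2β-null cells, 2 of the 8 tested members, where 5.27% of all tested features were called higher. Scx was called lower, 1 of the 8 tested members, against 4.97% of all tested features. By the adjusted p alone, 5 tested members were higher (Cebpa, Cebpb, Cebpd, Runx2 and Sox9), against 32.5% of all features, and 3 were lower (Pparg, Runx1 and Scx), also against 32.5%. The median log2 fold change was 0.26 over the 8 tested members and 0.0027 over all tested features. The plot of members by library shows the values behind these calls.

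**Figure D1:**
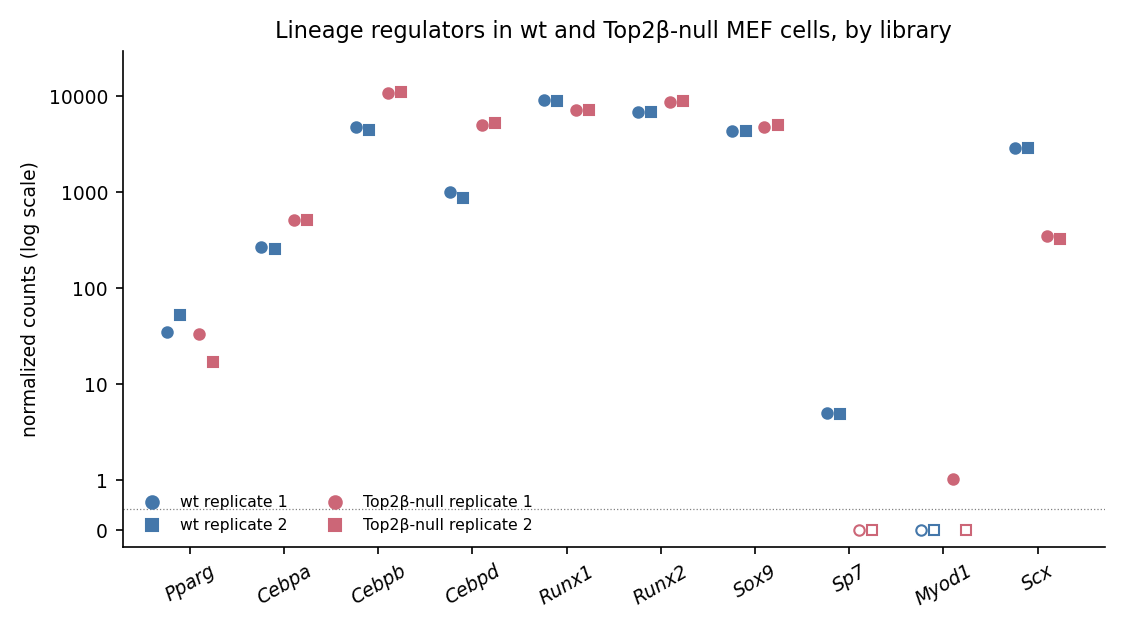
Normalized counts of the 10 members on a log scale, with 1 symbol per library (blue, wt; red, Top2β-null; circles, replicate 1; squares, replicate 2; open symbols below the dotted line, 0 counts). Cebpb and Cebpd lie higher in both Top2β-null libraries, Scx lies lower in both, and Sp7 and Myod1 are at or near 0.

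The fat regulators held both members called higher. Cebpd, a bZIP factor induced at the start of adipogenesis and by inflammatory signals, lies at chr16:15887286-15891031 on the plus strand of GRCm38 (ENSMUSG00000071637). Its wt libraries held 998 and 880 normalized counts, and its Top2β-null libraries 5045 and 5244. Both Top2β-null libraries lay far above both wt libraries. The means were 939 ± 83.6 and 5145 ± 141 (SD, n = 2 each), a 5.48-fold difference. The log2 fold change was 2.45 with a standard error of 0.0519 and an adjusted p of 6.09e-16 by edgeR's test.

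Cebpb, the other early C/EBP factor, lies at chr2:167688915-167690418 on the plus strand (ENSMUSG00000056501). The wt libraries had 4803 and 4468 normalized counts, and the Top2β-null libraries had 10991 and 11186. The groups did not overlap. The means were 4636 ± 237 and 11088 ± 138 (SD, n = 2 each), or 2.39-fold higher in Top2β-null cells. The log2 fold change was 1.26 with a standard error of 0.0320 (edgeR, adjusted p = 6.04e-15).

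Cebpa, which takes over from the early factors and restrains cell division, lies at chr7:35119293-35121928 on the plus strand (ENSMUSG00000034957). It had 268 and 260 normalized counts in wt and 517 and 509 in Top2β-null cells, again without overlap. With means of 264 ± 6.12 and 513 ± 5.46 (SD, n = 2 each), it rose 1.94-fold. Its log2 fold change of 0.96 (standard error 0.0838, edgeR adjusted p = 4.26e-08) fell just short of the cut-off of 1, so that it was not called. Scaling to the total count put it at 1.03, and with that scaling 3 members were called higher in place of 2.

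Pparg, the nuclear receptor that is needed for adipocyte formation, lies at chr6:115360951-115490399 on the plus strand (ENSMUSG00000000440) and was the lowest of the tested members. It had 35.3 and 53.1 normalized counts in wt and 33.1 and 16.8 in Top2β-null cells. The lower wt library and the higher Top2β-null library were close to each other, and the replicates of a group lay further apart than these. The means were 44.2 ± 12.6 and 25.0 ± 11.5 (SD, n = 2 each). The log2 fold change was -0.83 with a standard error of 0.349 (edgeR, adjusted p = 0.0477). The adjusted p was 0.152 with DESeq2, 0.0618 with the replicate number as a block, 0.288 without wt replicate 2 and 0.362 without Top2β-null replicate 2, and the mean was under the cut-off of 100. The difference in Pparg thus did not pass the threshold of 0.05 in every fit tried.

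The promoters of Cebpa and Cebpb are shown because both genes rose and each holds a TATA box motif on the printed strand, at a different place. The motif is not particular to members that rose, since a Pparg promoter holds it on the other strand, at position -29. The sequences come from RefSeq (GRCm38.p6), run from 250 bases before to 50 bases after the start site, and are on the plus strand at chr7:35119043-35119342 for Cebpa and chr2:167688665-167688964 for Cebpb. Capitals mark the motif TATAAA and, in the promoter of Cebpb, the motif TGACG, the core of the cAMP response element, which appears as CGTCA where it lies on the other strand.
Cebpa: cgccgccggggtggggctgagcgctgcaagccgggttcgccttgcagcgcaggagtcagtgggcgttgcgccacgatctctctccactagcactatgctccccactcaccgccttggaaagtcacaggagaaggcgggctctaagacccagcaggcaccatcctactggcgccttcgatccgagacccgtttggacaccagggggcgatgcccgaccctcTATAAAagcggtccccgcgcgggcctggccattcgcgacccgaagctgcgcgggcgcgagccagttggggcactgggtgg
Cebpb: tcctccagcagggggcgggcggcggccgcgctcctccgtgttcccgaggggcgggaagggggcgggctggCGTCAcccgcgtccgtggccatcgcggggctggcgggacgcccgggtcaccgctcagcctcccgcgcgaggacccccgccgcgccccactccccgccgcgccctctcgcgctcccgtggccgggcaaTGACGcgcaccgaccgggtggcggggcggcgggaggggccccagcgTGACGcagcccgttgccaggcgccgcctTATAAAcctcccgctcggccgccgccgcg
In Cebpa, TATAAA begins at position -30 counted from the start site. In Cebpb it begins at position 21, after the annotated start, and TGACG begins at positions -53 and -7 on the printed strand, with CGTCA at position -180. On either strand, TATAAA occurs in 13.6% and TGACG in 20.8% of the 32851 promoters of the same length in the table. These matches describe the letters alone. The table holds 8 promoters of 5 members, and Cebpd, Sox9, Sp7, Myod1 and Scx have none in it.

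The C/EBP genes bind DNA as dimers with each other, so their relative levels were compared as normalized counts per kb of exon. Over Cebpa, Cebpb, Cebpd and Cebpg, the summed level was 4659 and 4359 per kb in wt and 9817 and 9971 per kb in Top2β-null cells. The share of Cebpd was 5.72% and 5.39% in wt against 13.9% ± 0.229 (SD, n = 2) in Top2β-null libraries. The share of Cebpb was 68.4% ± 0.278 in wt and 74.5% ± 0.112 in Top2β-null cells (SD, n = 2 each), the largest share of the 4 genes in every library. Cebpg, a relative that lacks an activation domain, took the opposite course, with 23.9% ± 0.459 in wt and 9.64% ± 0.298 in Top2β-null cells. Its own level moved little, with a log2 fold change of -0.17. Cebpa held 2.22% ± 0.0532 and 1.97% ± 0.0425 of the sum, so that its rise was below that of the family as a whole.

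**Figure D2:**
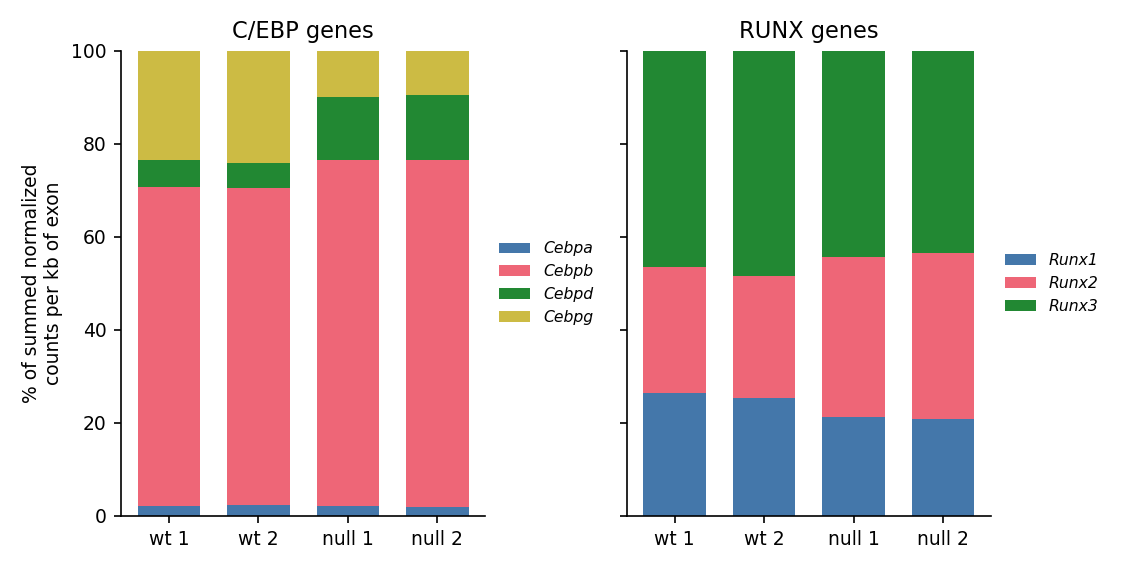
Share of each gene in the summed normalized counts per kb of exon of its family, in percent, with 1 stacked bar per library (left, C/EBP genes; right, RUNX genes). Cebpd and Cebpb take a larger share and Cebpg a smaller share in both Top2β-null libraries, and Runx2 gains where Runx1 loses.

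In the bone and cartilage group, Runx1 and Runx2 moved in opposite directions. Runx2, the factor without which no osteoblasts form, lies at chr17:44495987-44814797 on the minus strand (ENSMUSG00000039153). It had 6910 and 6865 normalized counts in wt and 8718 and 9019 in Top2β-null cells. Both Top2β-null libraries were higher. The means were 6887 ± 31.9 and 8869 ± 212 (SD, n = 2 each), 1.29-fold apart, with a log2 fold change of 0.36 (standard error 0.0269, edgeR adjusted p = 4.94e-09).

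Runx1, best known from blood stem cells and also present in skeletal progenitors, lies at chr16:92601466-92826149 on the minus strand (ENSMUSG00000022952). It had 9182 and 8997 normalized counts in wt and 7279 and 7180 in Top2β-null cells, where both libraries were lower. The means were 9090 ± 130 and 7229 ± 70.1 (SD, n = 2 each), so that 79.5% of the wt level was measured in Top2β-null cells. The log2 fold change was -0.33 with a standard error of 0.0260 (edgeR, adjusted p = 1.12e-08). Since Runx1 is a blood gene as well, the blood cell markers are given beside it. Their summed level lay between 3808 and 3856 normalized counts in wt and between 1423 and 1433 in Top2β-null libraries. Gata1 alone differed by more than these sums did, with 2746 and 2593 in wt and 3.11 and 5.94 in Top2β-null libraries, whereas the other tested markers did not fall. Csf1r had 740 and 767 normalized counts in wt and 962 and 978 in Top2β-null libraries, with a log2 fold change of 0.36 (edgeR, adjusted p = 4.63e-05). Itga2b had 347 and 431 against 423 and 408, and Itgam 1.01 and 0.966 against 28.0 and 28.7. The 6 markers that were not tested had means under 10, with Tyrobp and Adgre1 at 0. Their part in the Runx1 result was not tested.

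The log2 ratio of Runx1 to Runx2 counts compares both genes within a library and needs no scaling between libraries. It was 0.41 and 0.39 in wt and -0.26 and -0.33 in Top2β-null cells, so that Runx1 had more counts in wt and Runx2 more in Top2β-null libraries. These counts are not divided by exon length. Per kb of exon, Runx2 lay above Runx1 in both genotypes, with means of 779 and 756 in wt and 1004 and 601 in Top2β-null cells. The difference of the means was -0.69, with a pooled SD of 0.0357. A two-sided exact permutation test over libraries gave p = 0.33 for this ratio, as for the 3 other ratios computed (adjusted p = 0.33), which is the smallest value that 2 against 2 libraries allow. Per kb of exon, Runx1 made up 25.8% ± 0.782 (SD, n = 2) of the 3 RUNX genes in wt, and 21.2% and 20.8% in the Top2β-null libraries. Runx2 made up 26.6% ± 0.547 and 35.1% ± 0.781 (SD, n = 2 each). Runx3 held the largest share in all 4 libraries, 47.5% ± 1.33 in wt and 44.0% ± 0.542 in Top2β-null cells. The summed RUNX level was 2926 ± 46.6 per kb in wt and 2863 ± 4.81 per kb in Top2β-null cells, so that the sum was nearly level while its parts were not.

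The first promoters of Runx1 and Runx2 share a stretch just after the start site, and they are shown because the genes moved apart. The sequences are from RefSeq (GRCm38.p6), 250 bases before to 50 bases after the first start site, on the minus strand, at chr16:92826025-92826324 for Runx1 and chr17:44814578-44814877 for Runx2. Capitals mark ACCACA, the motif that RUNX proteins bind (TGTGGT on the other strand).
Runx1: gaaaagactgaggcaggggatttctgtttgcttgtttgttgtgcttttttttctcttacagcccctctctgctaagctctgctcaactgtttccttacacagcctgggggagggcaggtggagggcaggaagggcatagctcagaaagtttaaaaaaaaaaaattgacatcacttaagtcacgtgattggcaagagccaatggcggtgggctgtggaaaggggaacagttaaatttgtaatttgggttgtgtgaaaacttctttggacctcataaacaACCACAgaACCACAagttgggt
Runx2: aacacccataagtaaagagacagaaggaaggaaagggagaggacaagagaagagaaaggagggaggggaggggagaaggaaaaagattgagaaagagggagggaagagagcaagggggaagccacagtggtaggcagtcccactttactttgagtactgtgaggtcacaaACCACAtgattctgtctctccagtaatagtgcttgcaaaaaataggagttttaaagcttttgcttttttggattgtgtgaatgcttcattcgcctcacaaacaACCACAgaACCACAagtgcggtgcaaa
The motif begins at positions 28 and 36 in Runx1 and at positions -80, 23 and 31 in Runx2. It occurs on either strand in 16.8% of the 32851 promoters. The longest run that both promoters share is 22 bases, begins at position 23 in Runx1 and 18 in Runx2, and holds 2 of these motifs.
Shared run: aaacaACCACAgaACCACAagt

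Sox9, the factor that chondrocytes need and that precedes Runx2 in skeletal progenitors, lies at chr11:112782224-112787760 on the plus strand (ENSMUSG00000000567). It had 4377 and 4413 normalized counts in wt and 4857 and 4987 in Top2β-null cells. The groups did not overlap, but the difference was the smallest of the tested members. The means were 4395 ± 25.3 and 4922 ± 91.6 (SD, n = 2 each), 1.12-fold apart. The log2 fold change was 0.16 with a standard error of 0.0312 (edgeR, adjusted p = 0.000243). Relative to Runx2 in the same library, Sox9 went the other way, since the log2 ratio of counts was -0.66 and -0.64 in wt and -0.84 and -0.85 in Top2β-null cells.

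Sp7, which acts after Runx2 in osteoblasts, lies at chr15:102356606-102367182 on the minus strand (ENSMUSG00000060284). It had 5 counts in each wt library and 0 counts in each Top2β-null library. A count of 0 allows up to 3 counts per library, which gives a bound of 1.62-fold lower in Top2β-null cells. The bound covers counting error in the Top2β-null libraries only and takes the wt mean as it was measured. These counts were too few for the filter. Without any filter, edgeR gave an adjusted p of 0.0317. All 4 libraries were thus close to the limit of detection for this gene.

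Scx had the largest difference of the 8 tested members. It encodes scleraxis, a bHLH factor of tendon and ligament progenitors, and lies at chr15:76457452-76459458 on the plus strand (ENSMUSG00000034161). It had 2890 and 2877 normalized counts in wt and 348 and 327 in Top2β-null cells. The wt libraries agreed closely, and both Top2β-null libraries were well below them. The means were 2884 ± 8.65 and 337 ± 15.0 (SD, n = 2 each), an 8.55-fold decrease that left 11.7% of the wt level. The log2 fold change was -3.10 with a standard error of 0.0571 (edgeR, adjusted p = 1.12e-16).

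Myod1, the muscle factor, lies at chr7:46376474-46379099 on the plus strand (ENSMUSG00000009471). It had 0 and 0 counts in wt and 1 and 0 counts in Top2β-null cells. Both groups were at or below the floor of 3 counts, and no fold is given. Without any filter, edgeR gave an adjusted p of 0.563.

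Per kb of exon, the order of the members differed between the genotypes. In wt it ran from Cebpb at 3082 normalized counts per kb through Scx at 1437, Sox9 at 1063, Runx2 at 779, Runx1 at 756, Cebpd at 251 and Cebpa at 100.2 to Pparg at 15.0 per kb. Runx2 and Runx1 were neighbours with little between them in wt, at 782 and 777 per kb for Runx2 and 764 and 748 per kb for Runx1. In Top2β-null cells Cebpb at 7372 per kb was followed by Cebpd at 1373, Sox9 at 1190, Runx2 at 1004, Runx1 at 601, Cebpa at 195, Scx at 168 and Pparg at 8.46 per kb. Scx thus went from the second to the seventh place and Cebpd from the sixth to the second. Among the members with over 1 normalized count per kb, the libraries of neighbours in the order did not overlap in either genotype. Sp7 and Myod1 had at most 1.49 per kb in any library.

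Genes that overlap or flank the members were compared next, because a read from an overlapping gene can be counted for the member. Whether the counting used the strand of the reads is not given in the sources used here, so that reads of a member and of a partner on the opposite strand cannot be told apart where their exons overlap. Of 11 genes that overlap a member, 10 were tested, 0 were called higher and 1 was called lower, all by edgeR. That gene was Bop1, a ribosome biogenesis factor on the opposite strand, within which Scx lies without sharing an exon. Bop1 fell from 26801 to 12375 normalized counts (means of n = 2), a log2 fold change of -1.11 (edgeR, adjusted p = 2.18e-15), whereas that of Scx was -3.10. The part of Bop1 reads in the Scx counts was not tested. Cebpb shares 312 bases (20.7% of its exon length) with Tmem189, whose log2 fold change was -0.05, and Cebpd shares 562 bases (15.0%) with Spidr, at 0.29. Neither of these partners moved as far as its member. Gm45091, which shares 51 bases (1.93%) with Cebpa on the opposite strand, had means of 25.3 and 55.0 normalized counts and a log2 fold change of 1.12 (edgeR, adjusted p = 0.00423), in the direction of Cebpa at 0.96. For Runx2, the antisense gene Runx2os1 shares 519 bases (5.87%) and had a log2 fold change of 0.08 (edgeR, adjusted p = 0.332). For Runx1, the antisense gene Gm26626 shares 106 bases (0.881%) and had a log2 fold change of -0.37.

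Of the 20 nearest protein-coding neighbours, 16 were tested, 1 was called higher and 1 lower. For these and for the overlapping genes, the shares over all tested features were 5.27% called higher and 4.97% called lower. Kcnj2, a potassium channel gene 1705 kb from Sox9, rose from 85.9 to 1777 normalized counts, a log2 fold change of 4.37 where that of Sox9 was 0.16. Pkp2, which encodes a desmosomal plaque protein 322 kb from Cebpd, fell by 2.99 on the log2 scale where Cebpd rose by 2.45. On the sides of Scx, Mroh1 (4.41 kb away) had a log2 fold change of 0.68 and Hsf1 (17964 bases away), the heat shock factor gene, had -0.49. Cebpg, the neighbour of Cebpa at 62.7 kb, had -0.17.

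**Figure D3:**
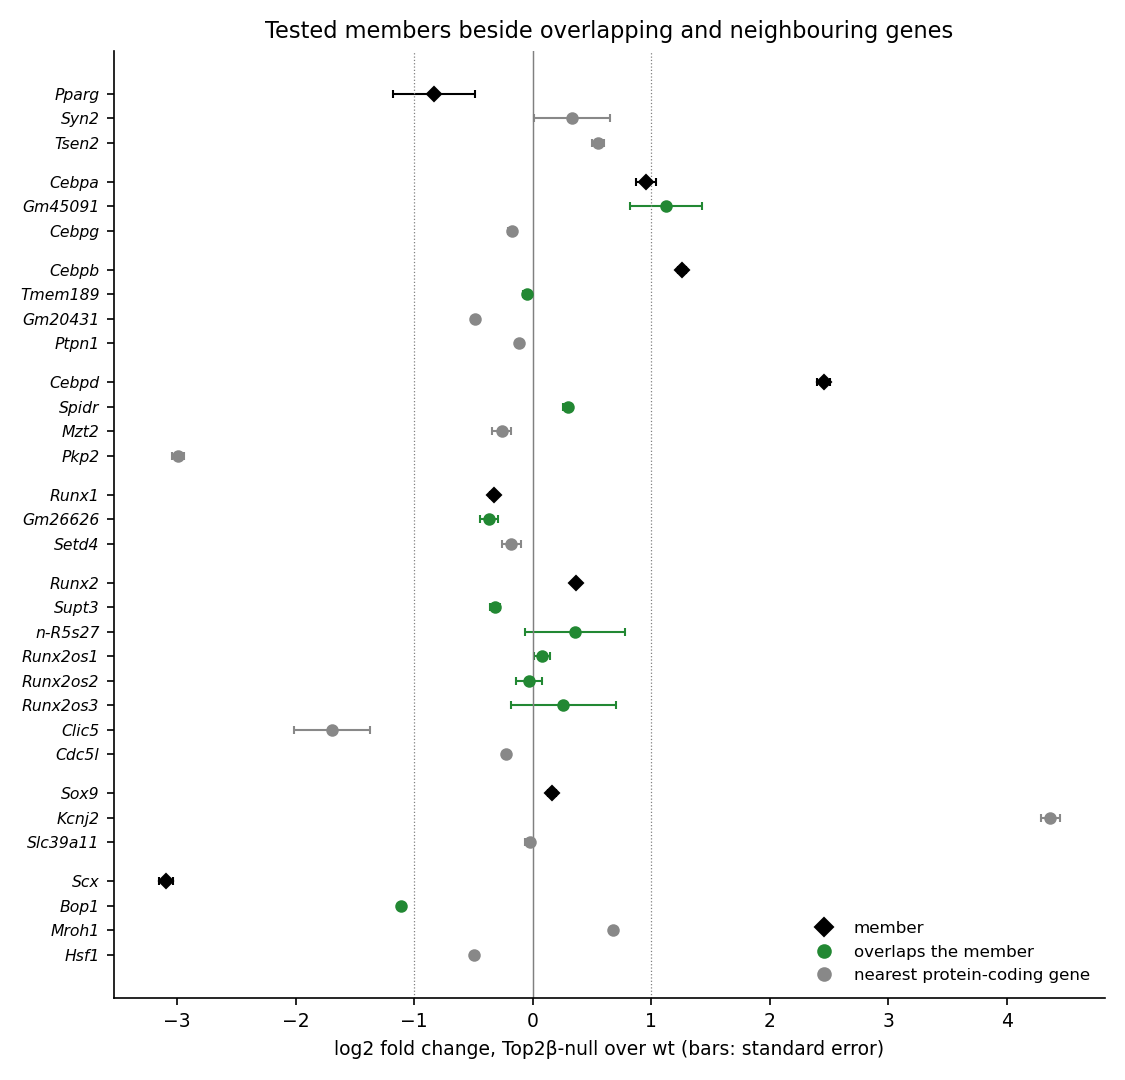
Log2 fold change (Top2β-null over wt) of each tested member (black diamonds) with the genes that overlap it (green) and its nearest tested protein-coding neighbours (grey), with bars for the standard error and dotted lines at the cut-offs of -1 and 1. Cebpb, Cebpd and Scx stand apart from the genes around them, and Kcnj2 and Pkp2 are the neighbours past a cut-off with a call.

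The partners and relatives of the members were 28 genes, of which 26 were tested. Of these, 7 were called higher and 1 lower, with a median log2 fold change of 0.18. For this list and those below, 5.27% of all tested features were called higher and 4.97% lower. By the adjusted p alone, the shares over all tested features were 32.5% higher and 32.5% lower. Among the 26 tested partners and relatives, 14 were higher and 11 lower by the adjusted p alone. Among Sox9 partners, Sox5, which supports Sox9 on cartilage genes, rose from 8.07 and 5.80 to 871 and 808 normalized counts, a log2 fold change of 6.90 (it could not be tested without either Top2β-null library, by the filter). The other SOX relatives of the list were lower, with means under 100 and so without a call. Their log2 fold changes were -1.90 for Sox6, which acts with Sox5, -3.20 for Sox8 and -1.78 for Sox10, with adjusted p of 0.0031, 1.04e-06 and 0.0004 by edgeR. Mef2c, which works with Myod1 in muscle and also in chondrocytes, rose by 5.67 on the log2 scale. All 4 Id genes, inhibitors of bHLH factors such as Myod1 and Scx, were called higher, and Id4 rose the most, by 2.55. Ddit3 (CHOP), which dimerizes with C/EBP proteins and blocks them, was called lower with a log2 fold change of -1.10. Ppard and Wwtr1 (TAZ, a coactivator of Runx2) were below the cut-off, at -0.66 and -0.20. Rxra, the partner of Pparg on DNA, had a log2 fold change of 0.25. Cbfb, the common partner of the RUNX proteins, had 11795 and 11750 normalized counts in wt and 23148 and 23936 in Top2β-null cells, and its log2 fold change lay just under the cut-off of 1. Cbfb passed the cut-off in some other settings. Among them were scaling to the total count (1.07), the fit without Top2β-null replicate 1 (1.06) and the filter of at least 100 counts in each library (1.01). Runx3 had -0.14.

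Of 15 other fat regulators, all tested, 3 were called higher and 1 lower, with a median log2 fold change of 0.38. The adjusted p alone gave 9 higher and 4 lower. Ppargc1a, a coactivator of Pparg linked to mitochondria, rose by 3.27. Gata2, which restrains adipogenesis, rose by 1.92, and Egr2 (Krox20), which precedes Cebpb in fat cells, rose by 1.48. Ebf1, which cooperates with Pparg, fell by 3.72, while Klf5 and Nr3c1 (the glucocorticoid receptor) had log2 fold changes of -0.57 and -0.16. Regulators described as promoting and as restraining fat formation were both among the genes called higher. Without either Top2β-null library, Ebf2 was called lower as well, since its mean then passed 100 normalized counts.

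Of 17 adipocyte genes, 9 were tested, 1 was called higher and 1 lower, with a median log2 fold change of -0.55. Fabp4, a fatty acid carrier and known Pparg target, rose from 8.07 and 1.93 normalized counts in wt to 572 and 534 in Top2β-null cells. Fabp4 could not be tested without either Top2β-null library, since the filter asks for 2 libraries. Plin4, a lipid droplet protein, fell by 1.87. By the adjusted p alone, 3 adipocyte genes were higher and 6 lower. Below the cut-off of 1, Acsl1 had a log2 fold change of 0.53, Dgat2 of -0.87 and Pnpla2 of -0.77. Lep had 0 counts in every library, and 8 of the 17 genes had means under 10.

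Of 12 other bone and cartilage regulators, 8 were tested, 3 were called higher and 0 lower by edgeR, and by the adjusted p alone 5 were higher and 3 lower. The median log2 fold change was 0.79. Msx1, a homeobox gene of cranial and dental mesenchyme, had 0 counts in both wt libraries and 859 and 869 normalized counts in Top2β-null cells, which is at least 291-fold higher against a floor of 3 counts per library (it could not be tested without either Top2β-null library). Zfp521, a zinc finger protein that antagonizes Runx2, rose by 3.13 and Foxc1 by 1.46. Atf4, which works with Runx2 in osteoblasts, had a log2 fold change of -0.83. The other lower genes, Dlx5 and Dlx6, had log2 fold changes of -2.19 and -1.49, with means under 100 and so without a call.

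Of 16 osteoblast genes, 11 were tested, 2 were called higher and 1 lower, with a median log2 fold change of 0.43. The adjusted p alone gave 6 higher and 4 lower. Spp1 (osteopontin) had 2355 and 2330 normalized counts in wt and 91871 and 92697 in Top2β-null cells, a log2 fold change of 5.30. Tnfrsf11b (osteoprotegerin, a decoy receptor that limits osteoclasts) rose by 4.96. Col1a1, the chain of type I collagen that is also a fibroblast marker, fell by 1.38, and Phex and Sparc stayed under the cut-off at 0.77 and -0.34. With means under 100 and so without a call, Bglap was lower and Alpl higher by the adjusted p alone. Bglap had 18 and 20 counts in wt and 3 and 3 in Top2β-null cells, and Alpl had 5 and 9 against 32 and 31. Ibsp had 0 counts in every library. Of 15 chondrocyte genes, 11 were tested, 1 was called higher and 0 lower by edgeR, and the median log2 fold change was 0.10. By the adjusted p alone, 5 were higher and 2 lower. The called gene was Col11a1, which rose by 6.12. Without either wt library, Col2a1 was called higher too, since its mean then passed 100 normalized counts. The lower genes were Acan (aggrecan), at 98.9 and 100.5 normalized counts in wt and 5.18 and 3.96 in Top2β-null cells, and Matn3, with a log2 fold change of -3.77. Col11a2 had 0.27 (edgeR, adjusted p = 0.0225), and DESeq2 gave an adjusted p of 0.116.

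Of 9 other muscle and tendon regulators, 5 were tested and 2 were called higher, with a median log2 fold change of 0.72. The adjusted p alone gave 4 higher and 1 lower. Pax3, a gene of muscle and neural crest progenitors, had 0 counts in both wt libraries and 248 and 273 normalized counts in Top2β-null cells, at least 87.9-fold higher (not tested without either Top2β-null library, by the filter). Egr1, an immediate early gene that also acts in tendon, rose by 3.83. Six4 had a log2 fold change of 0.72 and Mkx, a tendon homeobox gene, of -0.45. Myf5 and Myog, which act beside and after Myod1, had 0 counts in every library.

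Of 16 skeletal muscle genes, 6 were tested, and 1 (Acta1) was called lower, with a log2 fold change of -1.06. By the adjusted p alone, 1 was higher and 3 lower. Des (desmin) had 88.8 and 139 normalized counts in wt and 2.07 and 0.990 in Top2β-null cells, and Tnnt3 had 20.2 and 22.2 against 1.04 and 0, both with means under 100. Acta1 slipped under the cut-off of 1 when scaling to the total count (-0.99), without wt replicate 1 (-0.97) and without Top2β-null replicate 2 (-0.90), with the adjusted p still below 0.05. In 10 of the 16 genes the mean was under 10 normalized counts. Of 9 tendon genes, 5 were tested, 3 were called higher and 1 lower, with a median log2 fold change of 1.11. The adjusted p alone gave 3 higher and 2 lower. Dcn (decorin) rose by 4.99, Tnc (tenascin C) by 2.40 and Bgn (biglycan) by 1.11, while Col14a1 fell from 175 and 159 to 66.3 and 69.3 normalized counts and Col12a1 had a log2 fold change of -0.77. Without wt replicate 1, Col14a1 had a log2 fold change of -1.25 but lost its call, since its mean of 98.8 normalized counts was then under 100. Tnmd, a target of Scx in tendon, had 0 and 2 counts in wt and 0 and 0 in Top2β-null cells. Dcn is a fibroblast marker as well, and these collagens and proteoglycans are also made by fibroblasts.

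**Figure D4:**
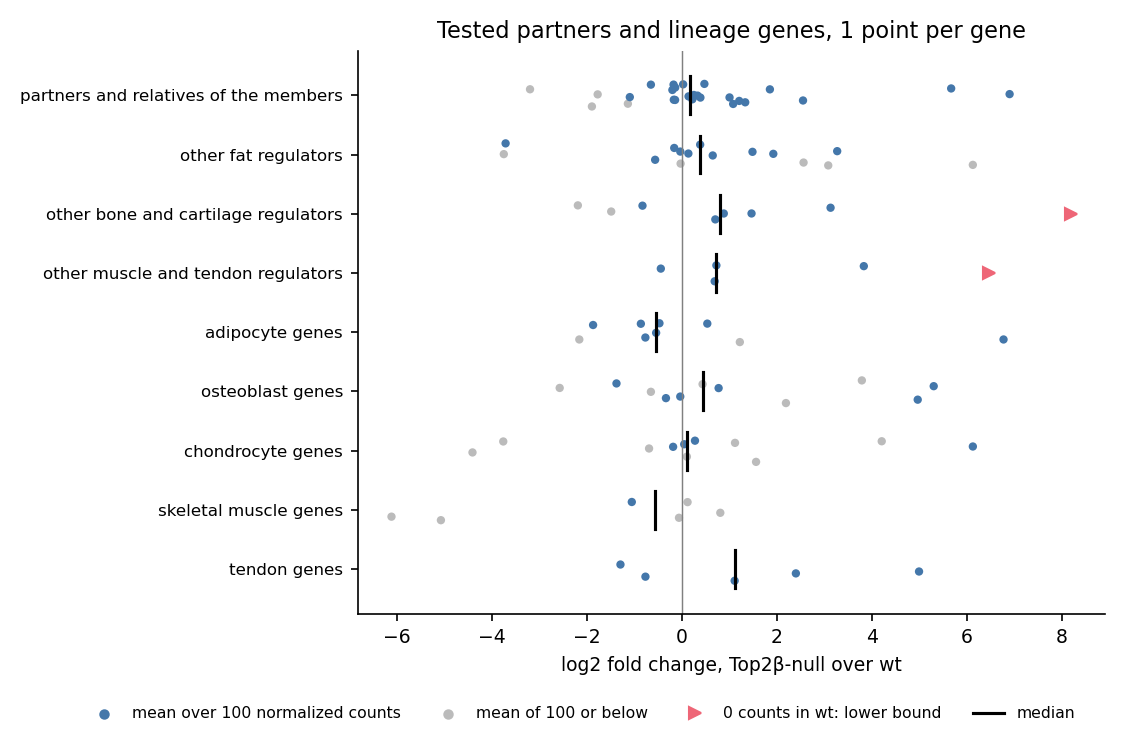
Log2 fold change (Top2β-null over wt) of every tested partner, lineage regulator and lineage gene, 1 point per gene, in 9 lists (blue, mean over 100 normalized counts; grey, 100 or below; red arrowheads, Msx1 and Pax3 at their lower bounds; black bars, medians). The medians range from -0.56 for skeletal muscle genes to 1.11 for tendon genes, and single genes in most lists lie far on either side of them.

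The fold changes of the tested members were recomputed under each other setting, except that Pparg did not pass the filter of at least 100 counts in each library. Cebpb ranged from 1.19 to 1.33 on the log2 scale, Cebpd from 2.35 to 2.53 and Scx from -3.11 to -3.03. Runx2 ranged from 0.35 to 0.43, Sox9 from 0.14 to 0.23 and Runx1 from -0.36 to -0.26. Cebpa lay between 0.92 and 1.03, on both sides of the cut-off. Pparg had the widest range, from -1.35 to -0.40.

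**Figure D5:**
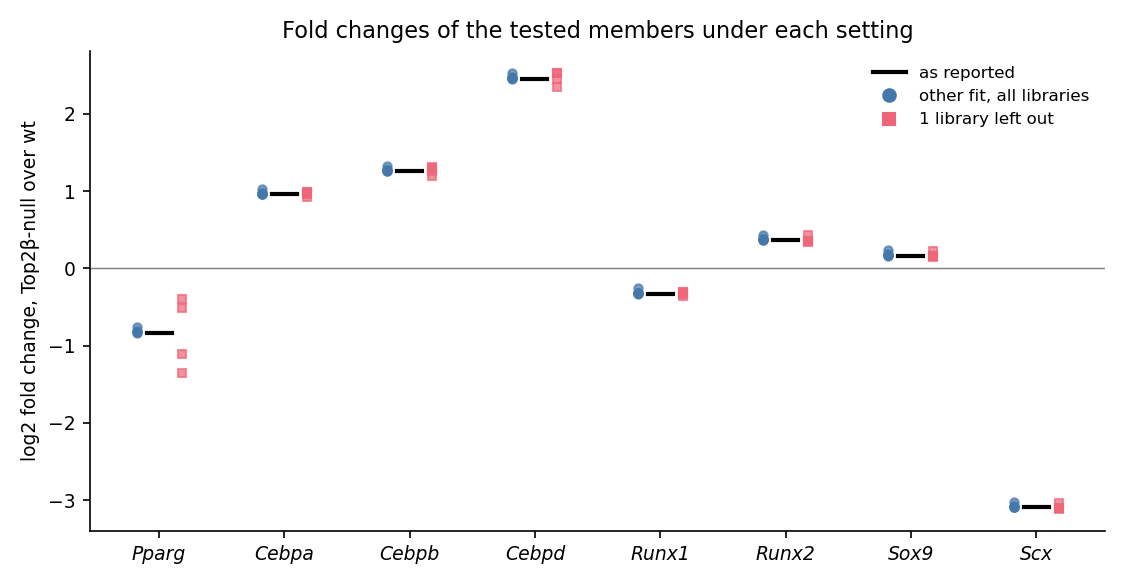
Log2 fold change (Top2β-null over wt) of the 8 tested members as reported (black bars), with the other fits on all 4 libraries (blue circles) and with 1 library left out (red squares). Each of the 8 keeps its side of 0 in these settings, and Pparg spreads from -1.35 to -0.40.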

How the data were processed

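Reads were trimmed by the authors, aligned to mm10 with STAR (reads with many alignments were kept) and assigned to Gencode genes and RepeatMasker families by TEtranscripts. The deposited table holds raw counts, 1 column per library. The counting mode and strand setting are not given in the sources used here.

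Groups follow the sample labels. Symbols and positions (GRCm38) are from GENCODE M21, in which 54495 of the 54842 genes were found. The filter kept 25085 genes and 1481 repeat families, which were fitted with edgeR 4.0.16 in R 4.3.3, with TMM factors over both kinds, genotype as the only term and Benjamini-Hochberg adjustment over all of them. Standard errors are the log2 fold change, without its sign, over the square root of F. The cut-offs are those of the study's methods, which used DESeq2. Between replicates, chi-square per degree of freedom was 3.65 (wt) and 5.07 (Top2β-null), more than counting alone gives. The tests were tried on simulated data.

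The members and lists were chosen with earlier results of these data known. Named genes are the members, up to 3 genes per list with the largest change in each direction (adjusted p below 0.05, mean above 100, groups not overlapping), the partners Rxra, Cbfb, Runx3, Myf5 and Myog, and genes that overlap or flank a member. Kdr, Tek, Krt8, Cdh1, Lum, Col3a1, Fbn1, Thy1, Pdgfra, Pdgfrb, the blood cell markers and the Id genes as a group were named after their values were seen. So were Sox6, Sox8, Sox10, Ebf2, Dlx5, Dlx6, Bglap, Alpl, Col2a1, Acan, Matn3, Des, Tnnt3, Lep, Ibsp and Tnmd. Ddit3 has more than 1 identifier, and the lowest was used. The alternatives were DESeq2 1.42.0, scaling by genes alone or by the total count, other filters (none, or at least 100 counts in each library), the replicate number as a block, the adjusted p without other cut-offs, 0.5 added to the counts of the ratios, and fits without 1 library.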

Additional observations from a re-analysis of the deposited data

How the results depend on the processing

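Over the 8 tested members, 43 of 47 values from other settings with all libraries had the reported direction and the same side of 0.05. The 4 others were all Pparg, with a log2 fold change of -0.82 and an adjusted p of 0.152 with DESeq2, -0.82 and 0.0528 with TMM factors from genes only, -0.76 and 0.0620 when scaling to the total count, and -0.83 and 0.0618 with the replicate number as a block. With 1 library left out, where the lone library is assumed to vary like the other group, Pparg ranged from -1.35 to -0.40 and missed the threshold in 2 fits, and 30 of the 32 values of all members kept direction and side. The cause was not tested. By the adjusted p alone, 5 members were higher and 3 lower in place of 2 and 1. The 4 ratios kept their sign when 0.5 was added to each count.

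Of 385 values of 66 other named genes with all libraries, 3 changed sign, all when scaling to the total count (Tmem189 0.0216, Runx2os2 0.0358 and Slc39a11 0.0436), which moved the median of all features from 0.0027 to 0.0724. With 1 library left out, 4 of 260 values changed sign. The ranges were -0.35 to 0.87 for n-R5s27, -0.57 to 0.83 for Runx2os3, -0.20 to 0.17 for Runx2os2 and -0.062 to 0.0207 for Slc39a11. Where the sign changed, the adjusted p was above 0.05. The libraries with the same number did not deviate together (correlation 0.0207 over 17952 features), so the number is taken as a name, and the replicate block moved no named gene other than Pparg across 0.05. Sp7 and Myod1 had at most 5 counts in any library, too few for the filter.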
